A study of Mus musculus with 20 samples.

Results

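The Notch pathway genes described here were 10 of the 48795 genes in the expression table. They were the receptors Notch1, Notch2, Notch3 and Notch4, the ligands Jag1, Jag2 and Dll4, and the transcriptional targets Hey1, Heyl and Hes1. They were chosen by name and not by a filter on their values, though with earlier results of these data known. Each was matched to 1 row by its Ensembl identifier. Bulk RNAseq of whole embryonic hearts at E13.5 was used to ask how the dose of the kinase gene Dyrk1a alters gene expression in a mouse model of Down syndrome. The 20 hearts were 10 WT, 5 Dp1Tyb and 5 with the label Dp1TybDyrk1a+/+/-. Dp1Tyb embryos carry a duplication of mouse chromosome 16 from Lipi to Zbtb21 and so have an extra copy of every gene in it, Dyrk1a included, and hearts labelled Dp1TybDyrk1a+/+/- carry that duplication together with a null allele of Dyrk1a (Dyrk1atm1Mla), which returns the number of functional Dyrk1a copies to that of WT. All mice were on a C57BL/6J background, the alleles were carried in every cell of the embryo and not in 1 cell type, and WT hearts came from littermates of both crosses, which the labels do not tell apart.

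Notch receptors are cleaved when a Jagged or Delta-like ligand on a neighbouring cell binds them, and the freed intracellular domain joins the DNA-binding protein RBPJ to activate genes such as those of the HES and HEY families of repressors. In the embryonic heart this signalling is known for its part in the endocardium that lines the chambers, in the forming valve cushions, in trabeculation of the ventricle and in the arterial endothelium and smooth muscle of the vessels. Mutations of JAG1 and NOTCH1 cause heart malformations in humans.

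None of the 10 genes lay in the duplicated segment. On GRCm38 (RefSeq positions) Notch1, Jag1 and Dll4 were on chromosome 2, at 26457902 to 26503822, 137081451 to 137116520 and 119325784 to 119335666. Notch2 and Hey1 were on chromosome 3, at 98013538 to 98150367 and 8663359 to 8667038, and Notch3 and Notch4 on chromosome 17, at 32120820 to 32166896 and 34564286 to 34588543. Jag2 was on chromosome 12 at 112907803 to 112929812 and Heyl on chromosome 4 at 123233556 to 123249870. Hes1 was the only one on chromosome 16, at 30065357 to 30067796, outside the duplication. All 10 are protein-coding genes.

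Notch2 with Notch3, and Notch4 with Dll4, correlated past the threshold over the 20 hearts, though not in the 18 left without those that stood apart from the rest. The sequences before their start sites are shown for that reason. RefSeq windows of 250 bases before the start (GRCm38.p6) matched 7 of the 10 members, namely the receptors and ligands but no target. Each is printed 5′ to 3′ on the strand of the gene and only as far as the most upstream start of a GENCODE M39 transcript, and capitals mark motif letters.
Notch2, chr3:98013288-98013483, plus strand: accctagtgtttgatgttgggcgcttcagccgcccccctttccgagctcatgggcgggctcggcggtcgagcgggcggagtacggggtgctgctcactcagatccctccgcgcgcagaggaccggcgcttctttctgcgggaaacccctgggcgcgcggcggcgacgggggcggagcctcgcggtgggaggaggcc
Notch3, chr17:32166920-32167140, minus strand: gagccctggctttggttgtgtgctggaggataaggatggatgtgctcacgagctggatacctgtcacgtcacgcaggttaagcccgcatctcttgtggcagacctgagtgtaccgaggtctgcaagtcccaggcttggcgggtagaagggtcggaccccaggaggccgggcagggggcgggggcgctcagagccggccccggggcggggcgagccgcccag
Notch4, chr17:34564045-34564245, plus strand: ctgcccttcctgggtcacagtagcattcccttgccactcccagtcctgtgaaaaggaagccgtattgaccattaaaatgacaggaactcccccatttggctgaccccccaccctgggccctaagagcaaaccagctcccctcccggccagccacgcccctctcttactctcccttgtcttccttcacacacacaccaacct
Dll4, chr2:119325534-119325688, plus strand: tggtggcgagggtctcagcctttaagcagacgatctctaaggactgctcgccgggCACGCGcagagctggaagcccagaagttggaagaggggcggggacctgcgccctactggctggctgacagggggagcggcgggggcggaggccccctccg
The motifs searched, on both strands and without overlaps among them, were the RBPJ core TGGGAA, the E box CACGTG and the class C site CACGCG bound by HES and HEY proteins, and the ETS core CCGGAA. The class C site was found in 3 of the 7 full windows, against 7.62% of 32851 mouse promoters. It lay 42 bases before the start of Notch2 (past the printed letters), 195 bases before that of Dll4, and 171 and 249 bases before that of Jag1. The RBPJ core, the E box and the ETS core were in 0 of the 7 windows and in 21.6%, 6.02% and 12% of all promoters. The targets Hey1, Heyl and Hes1 had no window, so their promoters were not searched. GC content was 57.2 to 87.2% in the 7 windows, highest for Jag2, against a median of 52.4% over all promoters, and the windows of Jag1 and Jag2 lay wholly within a longer GENCODE transcript.

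All members were clearly expressed. Values are log2 of normalized read counts as deposited, and the mean normalized count over the 20 hearts ran from 248.4 for Jag2 to 2042.7 for Notch2, far above the 10 that a gene needed for testing. Read depth per heart is not given by such a table, so the precision rests on the number of hearts. To compare genes with each other, the WT level was divided by exon length (union of annotated exons, log2 per kb). Jag1, a ligand of vessel walls and the outflow tract, had the highest level at 7.85 ± 0.125 (SD, n = 10), or 231 normalized counts per kb, and its range over hearts did not touch that of Notch2 at 7.51 ± 0.108. From Notch2 through Notch3 (7.24 ± 0.164), Notch1 (7.06 ± 0.116), Hes1 (6.84 ± 0.063), Heyl (6.8 ± 0.142) and Hey1 (6.48 ± 0.079), each gene overlapped the next in its range. All genes were measured in the same hearts, and ranges do not pair them within a heart. The overlap thus does not show that these neighbours were alike, and their order was not tested. Dll4 at 6.16 ± 0.092, Notch4 at 5.85 ± 0.064 and Jag2 at 5.14 ± 0.067, 35.2 normalized counts per kb, followed without overlap. With the longest coding transcript as the length, Jag1 stayed first, now within the range of the next gene, and Jag2 last, but Notch1 moved ahead of Notch2 and Notch3, and Notch4 ahead of Dll4, so that 5 of 10 ranks were kept. With the canonical transcript, a length added after seeing the data, Hes1 moved from the fifth place to the first at 7.98 ± 0.063, its range overlapping that of Jag1. Then 3 of 10 ranks were kept, and the place of Jag1 at the top thus depended on the length used.

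**Figure D1:**
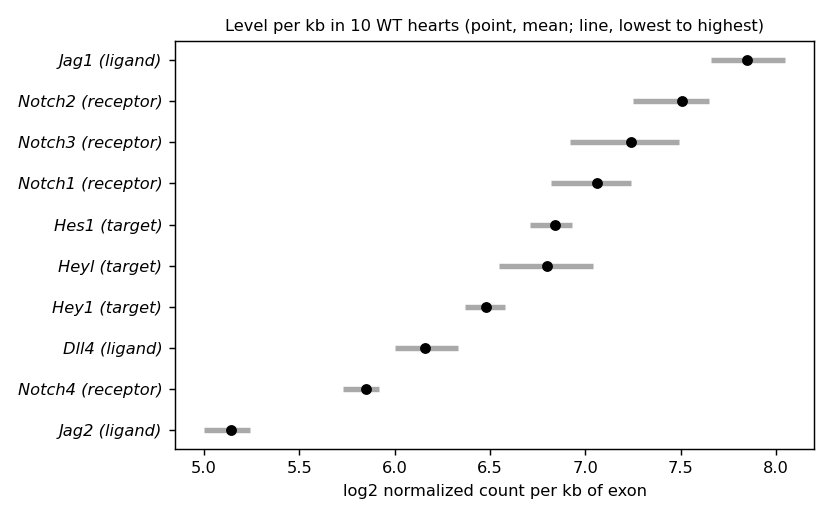
Level of each Notch pathway gene in the 10 WT hearts, as log2 normalized count per kb of exon (x axis), with the gene and its role on the y axis, the mean as a point and the lowest to highest heart as a line. With the union of exons as the length, Jag1 lies above the range of every other member and Jag2 below all of them.

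Before the genotypes were compared, the hearts themselves were checked. Dyrk1a was at 11.28 to 11.43 in WT, 11.65 to 11.75 in Dp1Tyb and 11.70 to 11.85 in hearts labelled Dp1TybDyrk1a+/+/-. It was thus raised by 0.322 and 0.395 over WT (limma adjusted p = 6.22e-08 and 2.18e-09) but not lower in the labelled hearts than in Dp1Tyb. The null allele lacks only some exons (from the methods of the study), so the value of the whole gene is no check of that allele. Defining markers of endothelium (Pecam1, Cdh5), cardiomyocytes (Tnnt2, Actc1), cushion mesenchyme and fibroblasts (Postn, Col1a1), epicardium (Wt1), macrophages (Csf1r) and erythroid cells (Alas2) were present in every heart, and the smooth muscle gene Myh11 varied most, from 7.82 to 10.50. The labelled Dp1TybDyrk1a+/+/- heart 2 and WT heart 6 stood apart from their groups, with root mean square deviations across genes of 0.204 and 0.146 log2 units against 0.053 to 0.093 in the others (taking genes that averaged 100 normalized counts or more), and for the results that turned on these hearts the value without both is also given.

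The main comparison asked whether any of these genes followed the duplication or the Dyrk1a dose. None of the 10 passed the threshold in any of the 3 comparisons. Dp1Tyb hearts differed from WT by between -0.058 (Dll4) and 0.073 (Notch3) on the log2 scale, and hearts labelled Dp1TybDyrk1a+/+/- differed from WT by between -0.127 (Notch3) and 0.044 (Notch1). Between the duplication genotypes Notch3 was 0.2 and Jag2 0.102 higher in Dp1Tyb, both with an unadjusted p under 0.05 that did not pass correction.
In Dp1Tyb versus WT, 0 of 10 members were called (limma, Benjamini-Hochberg adjusted p under 0.05), where 3.08% of the 15304 genes tested were, and 0 of 10 had an unadjusted p under 0.05, against 15.6% of all genes. The smallest adjusted p was 0.6 and the members' median log2 fold change 0.005, beside -0.0019 over all genes. In hearts labelled Dp1TybDyrk1a+/+/- versus WT, 0 of 10 were called (0.712% of all genes) and 1 of 10, Notch4, had an unadjusted p under 0.05 (9.6% of all genes). Here 9 of the 10 members were below 0, with a median of -0.062 beside -0.003 over all genes. Without both hearts that stood apart 10 of 10 were below 0, with a median of -0.05. With all hearts, within lanes 3, 6 and 7 the members above 0 numbered 5, 4 and 2 of 10. Both comparisons share the 10 WT hearts. In Dp1Tyb versus hearts labelled Dp1TybDyrk1a+/+/-, 0 of 10 were called (1.16% of all genes) and 2 of 10 had an unadjusted p under 0.05 (18.5% of all genes), with a median of 0.05 beside 0.0028. With so few members these counts do not stand apart from the background. As linear folds, the 95% confidence intervals of all 10 members lay within 0.871 to 1.175 for Dp1Tyb against WT, 0.819 to 1.118 for the labelled hearts against WT and 0.885 to 1.306 between the duplication genotypes, each on the scale of the deposited values, which can shrink differences. On that scale Dyrk1a, which has an extra copy in Dp1Tyb, had a fold of 1.25 over WT. The exact two-sided permutation test, which can reach p = 0.000333 with 5 against 10 hearts and p = 0.00794 with 5 against 5, gave no p under 0.05 for any member. In bulk hearts, fewer cells of a type and less RNA per cell cannot be told apart.

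**Figure D2:**
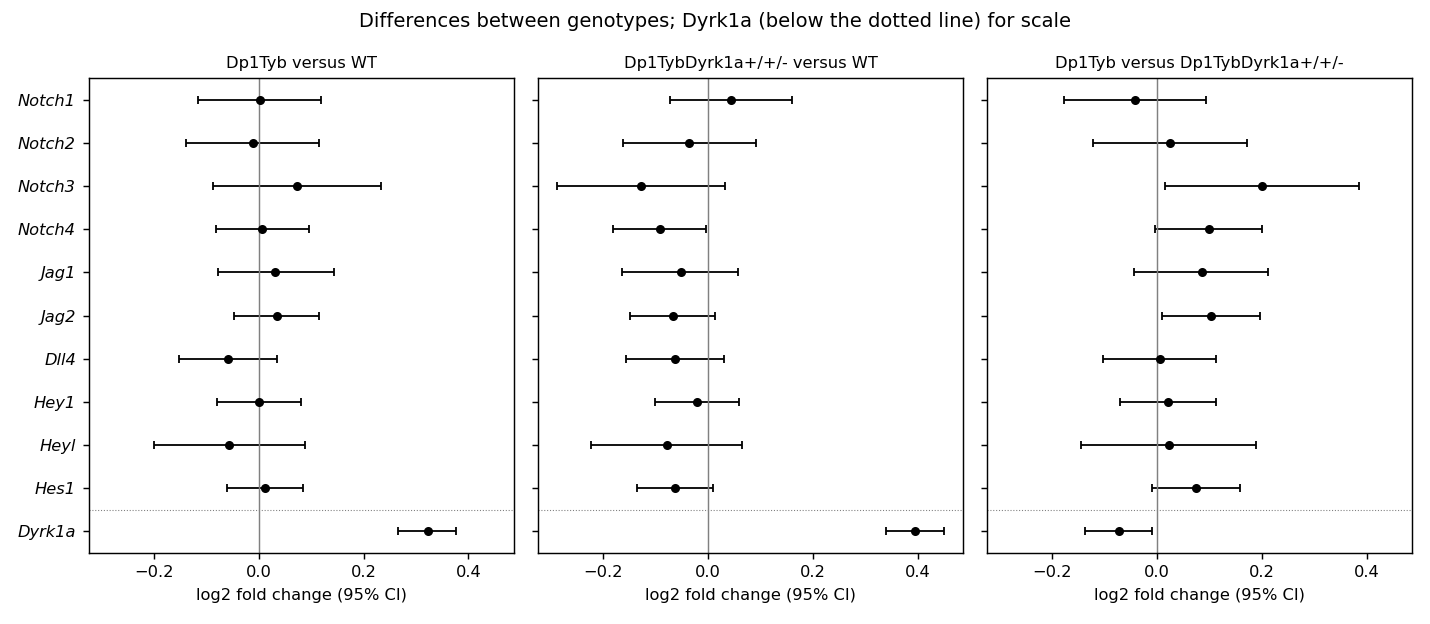
Log2 fold change of each member and of Dyrk1a (x axis, with 95% confidence intervals; genes on the y axis) in the 3 comparisons, from the fit across all genes. The members lie between -0.127 and 0.2, and every interval crosses 0 but those of Notch4 in the labelled hearts versus WT and of Notch3 and Jag2 in Dp1Tyb versus the labelled hearts, while Dyrk1a lies at 0.322 and 0.395 against WT.

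Of the receptors, Notch3, which marks vascular smooth muscle cells and pericytes, had the difference farthest from 0 among the members. Its WT hearts ran from 10.09 to 10.66 with a median of 10.44. The 5 Dp1Tyb hearts were at 10.60, 10.54, 10.37, 10.55 and 10.38, and the 5 hearts labelled Dp1TybDyrk1a+/+/- at 10.49, 10.44, 10.19, 10.18 and 10.13. In all, 3 of the labelled hearts were low, 3 Dp1Tyb hearts lay above all 5 of them, and both groups overlapped with WT and with each other. Group means were 10.42 ± 0.164 for WT (SD, n = 10), 10.49 ± 0.105 for Dp1Tyb (SD, n = 5) and 10.29 ± 0.168 for the labelled hearts (SD, n = 5). Dp1Tyb was higher than the labelled hearts by 0.2 (standard error 0.089, limma p = 0.0355, adjusted p = 0.233; exact permutation test, two-sided, p = 0.0794). With a weight per heart the difference was 0.243 and passed the threshold (limma adjusted p = 0.0381, range 0.0381 to 0.389 over 21 alternatives). At that setting 8.15% of all genes were called, against 1.16% without weights. Without both hearts that stood apart the difference was 0.239 (adjusted p = 0.0847). Within lanes the difference was -0.033 in lane 3, 0.331 in lane 6 and 0.326 in lane 7, with 1 to 3 hearts of a genotype in each. The same 3 labelled hearts were also lowest of all hearts for a list of 8 smooth muscle and mural marker genes, whose mean log2 value was 10.41, 10.38 and 10.34 in them and 10.47 to 10.79 in every other heart. That order turned on Myh11, a contractile smooth muscle myosin, which was at 8.07, 7.82 and 8.05 in these hearts. Without Myh11, an alternative chosen after seeing the data, the mean of the other 7 genes was 10.74, 10.74 and 10.66 in them and 10.71 to 10.97 in the other hearts. Between Dp1Tyb and the labelled hearts Myh11 differed by 0.565 (limma adjusted p = 0.483) and the other 7 genes by -0.096 to 0.098, with a median of 0.02 over the list. The part of these cells in the difference of Notch3 was not tested.

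Notch4, a receptor largely restricted to endothelium, was at 8.87 to 9.07 in WT with a median of 9.02. Dp1Tyb hearts were at 9.0, 8.95, 9.0, 9.04 and 9.04, and labelled Dp1TybDyrk1a+/+/- hearts at 8.94, 8.68, 8.90, 9.02 and 8.99. The labelled heart 2 alone fell below every other heart, and the other 4 lay within the WT range. The difference of the labelled hearts from WT was -0.092 (standard error 0.043, limma p = 0.0435, adjusted p = 0.5; exact permutation p = 0.0733), and over the alternatives it ran from -0.119 to -0.036, the value without heart 2 being the smallest in size. It was -0.05 (adjusted p = 0.402) without both hearts that stood apart.
Notch2, a receptor also known from valve mesenchyme and smooth muscle, was at 10.74 to 11.14 in WT, 10.95 to 11.07 in Dp1Tyb and 10.79 to 11.27 in the labelled hearts. Its highest heart was the labelled heart 2 at 11.27 and its lowest WT heart 6 at 10.74. Without these 2 hearts, the 4 other labelled hearts, 3 of them at 10.79, 10.89 and 10.90, gave a difference from WT of -0.139 with a limma adjusted p of 0.0556, against -0.035 (adjusted p = 0.87) with all hearts.
Notch1, the receptor of endocardium and endothelium best known in valve disease, was at 10.65 to 11.07 in WT, 10.74 to 11.03 in Dp1Tyb and 10.85 to 11.05 in the labelled hearts. Its group means of 10.89 ± 0.116, 10.90 ± 0.125 and 10.94 ± 0.077 were within 0.044 of each other, the smallest adjusted p over the 3 comparisons being 0.757.

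Of the ligands, Jag2 can activate Notch receptors much as Jag1 does. Its WT hearts ran from 7.82 to 8.07 with a median of 7.96. Dp1Tyb hearts were at 8.06, 7.98, 8.04, 7.91 and 7.99, and the labelled hearts at 7.94, 7.73, 7.95, 7.89 and 7.97, so that 4 of the 5 Dp1Tyb hearts lay above all 5 labelled hearts while both overlapped with WT. The difference was 0.102 (standard error 0.045, limma p = 0.0334, adjusted p = 0.227; exact permutation p = 0.0635) and it was 0.062 without both hearts that stood apart. Within lanes it was 0.05, 0.006 and 0.204 in lanes 3, 6 and 7.
Jag1 was at 10.24 to 10.63 in WT, 10.42 to 10.52 in Dp1Tyb and 10.30 to 10.52 in the labelled hearts. Dp1Tyb hearts were tightly grouped, with an SD of 0.042 against 0.125 in WT, and the difference between the duplication genotypes was 0.085 (standard error 0.061, adjusted p = 0.463; exact permutation p = 0.0952).
Dll4, the ligand of sprouting and arterial endothelium, was at 7.98 to 8.31 in WT, 8.0 to 8.18 in Dp1Tyb and 7.92 to 8.14 in the labelled hearts. Differences from WT were -0.058 in Dp1Tyb and -0.062 in the labelled hearts on the log2 scale, or folds of 0.961 and 0.958, with standard errors of 0.045 and adjusted p of 0.6 and 0.675.

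The targets differed by at most 0.078 in any comparison. Hey1, a repressor active in endocardium and atrial myocardium, was at 8.64 to 8.85 in WT, 8.68 to 8.79 in Dp1Tyb and 8.63 to 8.77 in the labelled hearts, and its difference between Dp1Tyb and WT was 0.0 with a 95% confidence interval of -0.08 to 0.08. Heyl, a HEY family repressor of smooth muscle and mural cells, was at 8.95 to 9.45 in WT, 9.05 to 9.28 in Dp1Tyb and 8.92 to 9.33 in the labelled hearts, with differences from WT of -0.056 and -0.078 (standard error 0.069, adjusted p = 0.775 and 0.733). Hes1, the most widely used HES target, was at 8.46 to 8.69 in WT with a median of 8.60. Its labelled hearts were at 8.64, 8.46, 8.53, 8.46 and 8.56, of which 2 were level with the lowest WT heart at this precision. Dp1Tyb hearts were at 8.55 to 8.67. The labelled hearts differed from WT by -0.063 (standard error 0.035, limma p = 0.0846, adjusted p = 0.574).

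**Figure D3:**
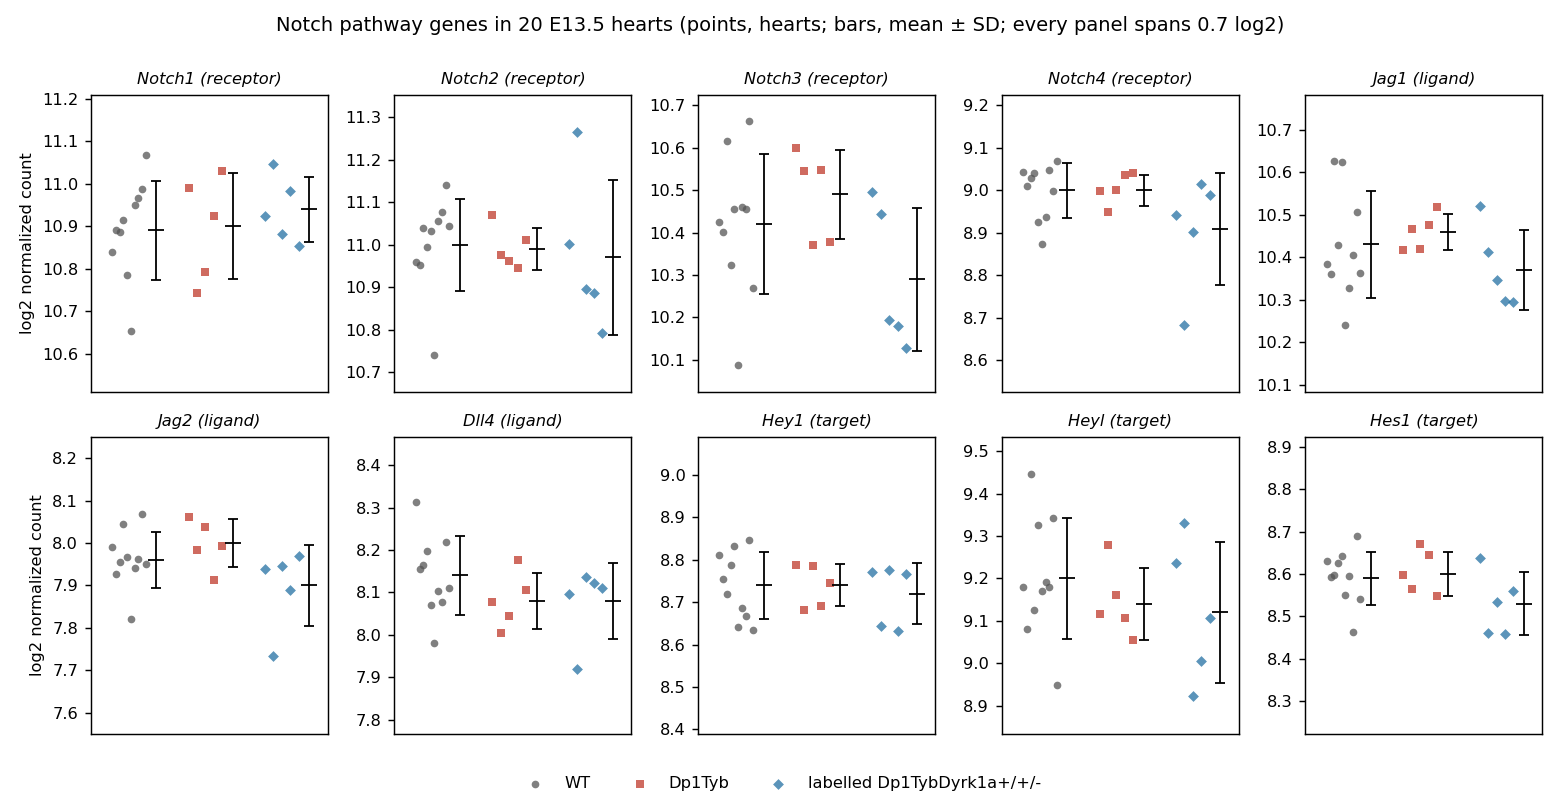
Log2 normalized count (y axis, every panel spanning the same width) of the 10 Notch pathway genes in each of the 20 hearts, grouped along the x axis as WT, Dp1Tyb and labelled Dp1TybDyrk1a+/+/-, with the group mean and SD as bars. The groups overlap in all panels, Notch3 is lowest in 3 labelled hearts apart from WT heart 6, and the labelled heart 2 is highest for Notch2 and lowest for Notch4, Jag2 and Dll4.

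The rest of the pathway was read from lists of 72 genes, of which 66 passed the filter on low values. In Dp1Tyb versus WT, 1 of 66 rose and 0 fell, against 3.08% of all genes, and the median log2 fold change was 0.014. In hearts labelled Dp1TybDyrk1a+/+/- versus WT and in Dp1Tyb versus those hearts, 0 of 66 were called in either direction (0.712% and 1.16% of all genes), with medians of 0.005 and 0.005. The gene that rose was Dner, a noncanonical Notch ligand best known from neurons, with group means of 5.525 ± 0.034 for WT (SD, n = 10), 5.608 ± 0.029 for Dp1Tyb (SD, n = 5) and 5.568 ± 0.040 for the labelled hearts (SD, n = 5). Its increase of 0.084 (standard error 0.021, limma adjusted p = 0.0295) rested on a mean normalized count of 47.1. Dp1Tyb hearts were at 5.578 to 5.650 and WT hearts at 5.455 to 5.568, the same values that gave the call and so no further support for it. The call held in 19 of 25 alternatives (limma adjusted p 0.00856 to 0.128) and was lost with quantile normalization, without WT heart 3 and without Dp1Tyb hearts 1, 3, 4 or 5, each of which left 0 of 66 called.
Of the 6 other ligands tested, Dner was the only one called in Dp1Tyb against WT, where the 6 log2 fold changes ran from 0.029 to 0.091, and 0 of 6 were called against the labelled hearts. Dll1, a classical Delta ligand, differed from WT by 0.029 in Dp1Tyb (adjusted p = 0.824) and by 0.021 in the labelled hearts (adjusted p = 0.889). No gene passed among 5 genes of ligand endocytosis, 6 glycosyltransferases that modify the receptors, 10 genes of receptor cleavage, 13 of the nuclear complex and 12 inhibitors. Lfng, a Fringe enzyme that alters the response to ligands, was within 0.024 between any pair of genotypes. Adam10, the protease that makes the first ligand-induced cut, differed from WT by 0.042 in Dp1Tyb and 0.113 in the labelled hearts (adjusted p = 0.792 and 0.532), and Rbpj, the DNA-binding core of the complex, by -0.012 and 0.017. Nrarp, a feedback inhibitor that Notch induces, was at 8.694 ± 0.072 in WT, 8.673 ± 0.115 in Dp1Tyb and 8.674 ± 0.047 in the labelled hearts.
Among 14 tested further targets 0 were called. Hey2, the HEY repressor of compact ventricular myocardium, was at 10.822 in WT, 10.784 in Dp1Tyb and 10.899 in the labelled hearts, a difference of -0.115 between Dp1Tyb and the labelled hearts (standard error 0.051, limma p = 0.0359, adjusted p = 0.235). Hes5, with a mean normalized count of 0.4, was not tested, like Hes2, Hes3, Hes7, Dll3 and Dlk2.

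Whatever the genotype, the members varied from heart to heart, and some did so together. After the mean of each genotype was removed, 8 of 45 pairs of members correlated past an adjusted p of 0.05 over the 20 hearts (permutation within genotype, 100000 resamples, Benjamini-Hochberg over 45 pairs), all 8 positively. They joined the genes into chains, one of Notch1, Notch2, Notch3, Jag1 and Heyl, one of Jag2, Hey1 and Hes1, and the endothelial pair Notch4 and Dll4.
Hey1 and Hes1, both repressor targets, had Pearson's r = 0.759 (permutation p = 0.00026, adjusted p = 0.0051) and Spearman's rho = 0.765 (permutation p = 0.00015, adjusted p = 0.00653), and r = 0.748 without the 2 hearts farthest from the median of Hey1. Jag2 and Hey1 had r = 0.726 (permutation p = 0.0001, adjusted p = 0.0045) and rho = 0.755 (permutation p = 0.00029, adjusted p = 0.00653), and r = 0.688 without the farthest 2. Notch3 and Heyl had r = 0.679 (permutation p = 0.00412, adjusted p = 0.0265) and rho = 0.633 (permutation p = 0.00715, adjusted p = 0.0536), and r = 0.756 without the farthest 2. These 3 pairs stayed past the threshold with the lane means also removed (r = 0.722, 0.759 and 0.774), with each heart centred on its median (0.74, 0.702 and 0.682) and in the 18 hearts left without those that stood apart (0.733, 0.694 and 0.745).
The other 5 pairs stayed past the threshold with lane removed (r from 0.527 to 0.786) but not in those 18 hearts. Notch2 and Notch3 had r = 0.737 (permutation p = 0.00068, adjusted p = 0.00765; rho = 0.654, permutation p = 0.00377, adjusted p = 0.0339) and 0.643 without them, and Notch1 and Notch2 had r = 0.671 (permutation p = 0.00034, adjusted p = 0.0051; rho = 0.638, permutation p = 0.00207, adjusted p = 0.031) and 0.472 without them. Notch3 and Jag1 had r = 0.691 (permutation p = 0.0025, adjusted p = 0.0187; rho = 0.651, permutation p = 0.00374, adjusted p = 0.0339) and 0.591. Notch4 and Dll4 had r = 0.714 (permutation p = 0.00146, adjusted p = 0.0131; rho = 0.568, permutation p = 0.0119, adjusted p = 0.0765) and 0.407 in the 18 hearts, and r was 0.45 without the 2 hearts farthest for Notch4. Jag1 and Heyl had r = 0.629 (permutation p = 0.00836, adjusted p = 0.047; rho = 0.522, permutation p = 0.0326, adjusted p = 0.16) and 0.703 in the 18 hearts, but with an adjusted p of 0.0573. The lowest r of all was that of Notch4 and Heyl at -0.469 (adjusted p = 0.236).

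**Figure D4:**
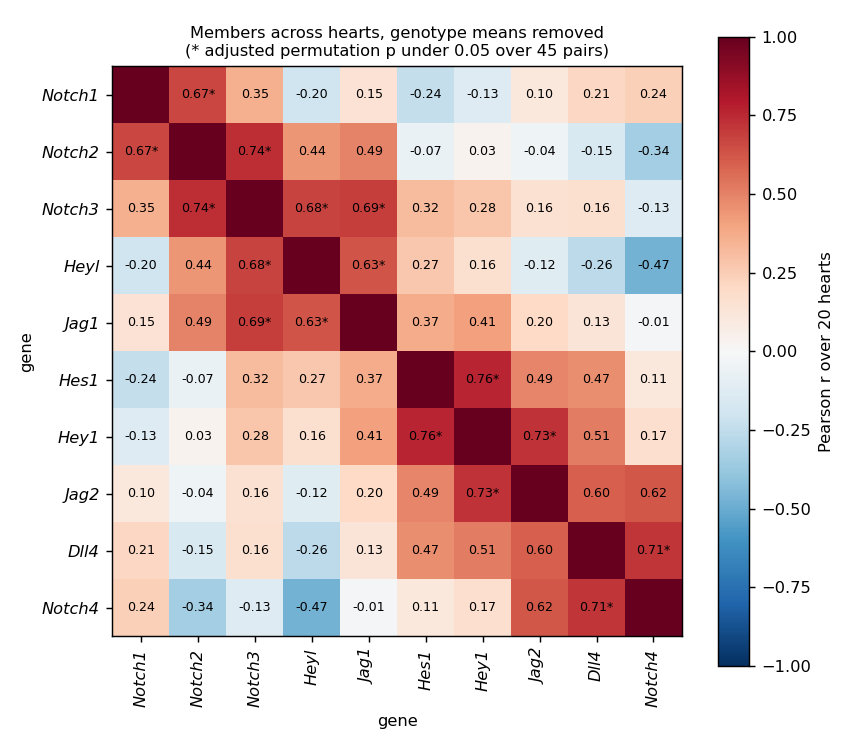
Pearson correlation of each pair of members over the 20 hearts after removal of the genotype means (color and printed value; genes on both axes), with an asterisk where the adjusted permutation p was under 0.05. The 8 marked pairs are all positive and fall into the chain from Notch1 to Jag1, the chain of Hes1, Hey1 and Jag2, and the pair of Dll4 and Notch4.

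The genes most like each member across the 20 hearts, by the same r searched among 11399 genes that averaged 100 normalized counts or more, are given as a description without a test. Notch3 was most like Col5a1 (r = 0.939), a fibrillar collagen gene, Pdgfrb (r = 0.928), the receptor that marks pericytes, and Sh3pxd2b (r = 0.9). For Heyl they were Gxylt2, Slc26a7 and Dclk1 (r = 0.924, 0.924 and 0.922), and for Jag1 Atp10a, Gpr161 and St7l (r = 0.798, 0.797 and 0.792). These stayed at 0.757 or above in the 18 hearts without those that stood apart. Among the genes most like Notch1 were Dync1h1 and Prrc2b (r = 0.946 and 0.943), and Notch2 was most like Lrp1, Cachd1 and Sdk2 (r = 0.945, 0.935 and 0.93), of which Dync1h1, the dynein heavy chain, and Lrp1 are among the longest mRNAs of the cell. Notch4 was most like Polg, Esrra and Eci1 (r = 0.934, 0.926 and 0.926), the mitochondrial DNA polymerase, a receptor that drives oxidative metabolism and a fatty acid oxidation enzyme, and these stood at 0.758, 0.724 and 0.732 in the 18 hearts. There the genes of Notch2 stood at 0.81, 0.794 and 0.852 and those of Notch1 at 0.929 and 0.92. Dll4 was most like Mfsd12 (r = 0.848, and 0.719 in the 18 hearts), Jag2 like Ap4m1 (r = 0.93 and 0.872), Hey1 like Nbl1 (r = 0.805 and 0.767), a secreted BMP antagonist, and Hes1 like Dse (r = 0.781 and 0.755).

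Because a whole heart mixes cell types, each member was also set beside 5 marker lists (mean log2 value of the list per heart) and a score of long against short transcripts, 60 relations in all with the genotype means removed. These relations were not among the planned tests. Heyl followed the smooth muscle and mural list most closely, with r = 0.861 (permutation p = 2e-05, adjusted p = 0.0004; rho = 0.788, permutation p = 0.0002, adjusted p = 0.002), r = 0.823 without the 2 hearts farthest from the median of the list, 0.869 with lane removed and 0.84 in the 18 hearts. For Notch3 r was 0.754 (permutation p = 0.00046, adjusted p = 0.00552; rho = 0.795, permutation p = 0.00017, adjusted p = 0.002) and for Jag1 0.621 (permutation p = 0.00454, adjusted p = 0.0272; rho = 0.606, permutation p = 0.0105, adjusted p = 0.0494), with 0.713 and 0.666 without the farthest 2 and 0.779 and 0.596 with lane removed. With Myh11 left out of the list, r was 0.604 for Heyl, 0.637 for Notch3 and 0.727 for Jag1, given as a description. Heyl and Notch3 also correlated positively with the fibroblast and cushion mesenchyme list (r = 0.829 and 0.686, adjusted permutation p = 0.00075 and 0.024) and negatively with the endothelial list (r = -0.681 and -0.584, adjusted permutation p = 0.0091 and 0.0434). Against the cardiomyocyte list r was -0.657 for Heyl and -0.582 for Hes1 (adjusted permutation p = 0.0174 and 0.0421). Notch4 followed the arterial endothelial list (r = 0.647, permutation p = 0.0043, adjusted p = 0.0272; rho = 0.638, permutation p = 0.00659, adjusted p = 0.0395; 0.741 without the farthest 2, 0.647 with lane removed and 0.551 in the 18 hearts). With the general endothelial list r of Notch4 was 0.364 (adjusted permutation p = 0.177), but 0.75 in the 18 hearts. With the cardiomyocyte list it was 0.213 (adjusted permutation p = 0.429) and 0.609 in the 18 hearts. In the 18 hearts Notch4 was thus not closest to the arterial list.
Between genotypes, of the 8 smooth muscle and mural genes 0 were called in any comparison, and their summed normalized count was 26524 to 30735 in WT, 25702 to 28682 in Dp1Tyb and 25654 to 30449 in the labelled hearts. Of the 10 endothelial genes only Erg, which lies in the duplicated segment, was called, 0.238 higher in the labelled hearts than in WT (adjusted p = 0.0214). Of the 6 endocardial genes Cytl1 was called, 0.15 higher in Dp1Tyb than in WT (adjusted p = 0.00266). Of the 6 proliferation genes, Top2a was called in Dp1Tyb versus WT at -0.143 (adjusted p = 0.0121), and Birc5 and Cenpf were called in Dp1Tyb versus the labelled hearts at -0.137 and -0.273 (adjusted p = 0.0304 and 0.0461). In these 2 comparisons 3.08% and 1.16% of all genes were called. All 6 proliferation genes were below 0 in both, with median log2 fold changes of -0.115 and -0.14. The calls between Dp1Tyb and the labelled hearts depended on the setting. Over all genes they fell from 178 to 29 with lane as a covariate and to 3 with only both groups in the fit. Lane 7 held 3 labelled hearts and 1 Dp1Tyb heart. The arterial endothelial, cardiomyocyte, fibroblast and cushion mesenchyme, epicardial, erythroid, macrophage and neural crest lists held 0 called genes. All 8 fibroblast and cushion mesenchyme genes were nevertheless above 0 in Dp1Tyb against WT and against the labelled hearts, which share the Dp1Tyb hearts. Their median log2 fold changes were 0.102 and 0.095 beside -0.0019 and 0.0028 over all genes. Of the 10 cardiomyocyte genes 1 was above 0 in Dp1Tyb against the labelled hearts, with a median of -0.117. The part of these cell types in the differences of the members was not tested.

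**Figure D5:**
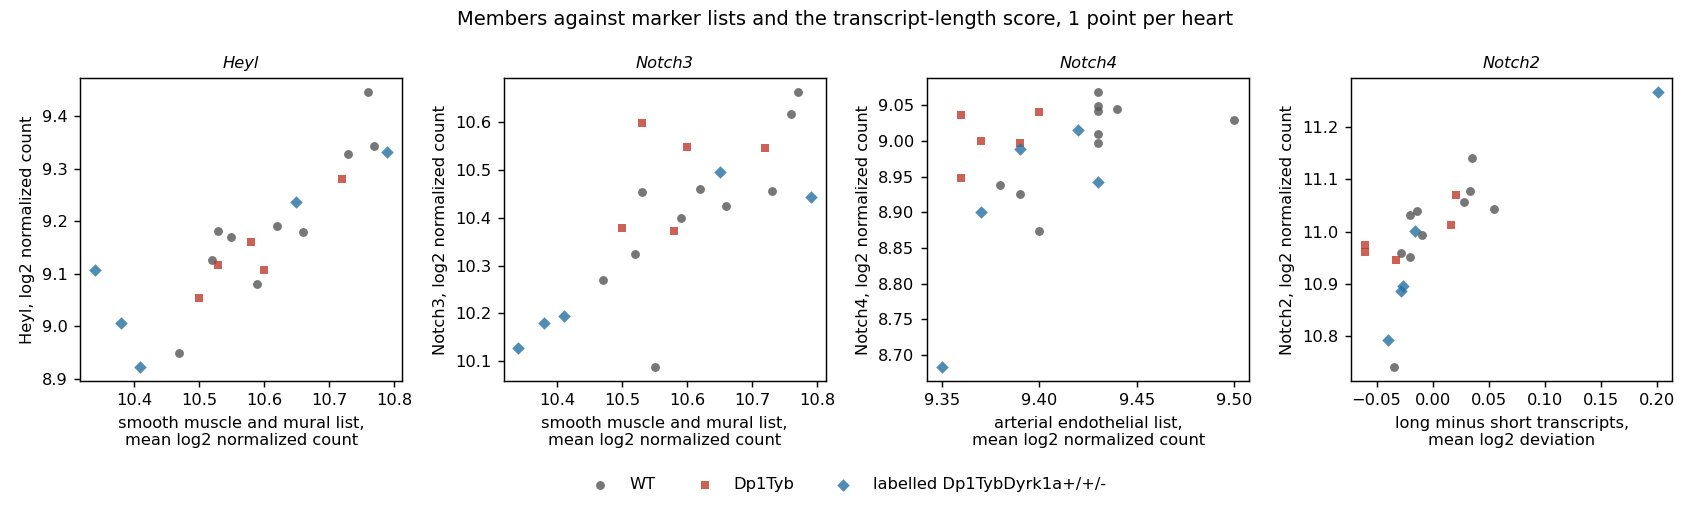
Log2 normalized count of Heyl, Notch3, Notch4 and Notch2 (y axes) in each heart against the mean of a marker list or the long-transcript score (x axes), with the genotype as color and shape. Heyl and Notch3 rise along the smooth muscle and mural list (Myh11 included), where 3 labelled Dp1TybDyrk1a+/+/- hearts lie lowest, and in the panel of Notch2 the labelled heart 2 lies alone at the right.

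Of the cell type lists set beside the members, Notch1 and Notch2 followed none past the threshold. Relations to the endocardial list and the other remaining lists were not tested. Notch2 came nearest with the smooth muscle and mural list (r = 0.611, permutation p = 0.0188, adjusted p = 0.0724). There r was 0.806 with lane removed, 0.327 without the 2 farthest hearts and 0.373 in the 18 hearts. Notch1 had r = 0.347 with the endothelial list (adjusted permutation p = 0.313), 0.306 with lane removed and 0.623 in the 18 hearts. Both genes did follow the length score. This score is the mean deviation of 1136 long genes minus that of 5679 short genes. Canonical transcripts were at least 7.42 kb in the long class and up to 3.65 kb in the short class. For Notch2 r was 0.824 (permutation p = 1e-05, the smallest 100000 resamples can give, adjusted p = 0.0003; rho = 0.814, permutation p = 3e-05, adjusted p = 0.0006), 0.711 without the 2 farthest hearts, 0.783 with lane removed and 0.671 in the 18 hearts. For Notch1 r was 0.665 (permutation p = 1e-05, adjusted p = 0.0003; rho = 0.814, permutation p = 1e-05, adjusted p = 0.0006), 0.74 without the farthest 2, 0.511 with lane removed and 0.897 in the 18 hearts. Both have canonical transcripts within the long class, as does Notch3, which did not follow the score (r = 0.353, adjusted permutation p = 0.313). The labelled Dp1TybDyrk1a+/+/- heart 2 scored 0.201 against -0.06 to 0.055 in the other 19 hearts, and the part of transcript length in the levels of Notch1 and Notch2 was not tested.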

How the data were processed

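The deposited table holds log2 values of normalized counts per Ensembl gene for 20 hearts, as the authors made them. Per the labels, polyadenylated RNA libraries (KAPA mRNA HyperPrep) were sequenced on an Illumina instrument, and the submitters' processing notes list Trimmomatic 0.36, STAR 2.5.2a, RSEM 1.2.31 and the build GRCm38. The transformation is not named in the sources used here, so fold changes are on the scale of the deposited values, which can shrink differences, and read depth is unknown. Of 48795 genes 19473 were at 0 in every heart, and 44565 were named with GENCODE M39. The count model of the study cannot run on log values, so limma 3.58.1 (R 4.3.3) with a mean-variance trend was fitted with all 20 hearts to 15304 genes whose mean normalized count was at least 10, with Benjamini-Hochberg adjustment over all of them and a threshold of 0.05. The fit was tested on data with known shifts. Single genes were also compared by exact permutation in Python 3.11.15. Hearts were grouped by the genotype in the labels. The labels do not pair hearts or name litters, and p-values measure the spread between hearts. The members and lists were chosen with earlier results of these data known. Named genes were all members, other pathway genes called in a comparison, 7 pathway genes named whatever their values (Hey2, Dll1, Rbpj, Hes5, Lfng, Adam10, Nrarp), the 3 genes most like each member (1 of which is not reported here), Dyrk1a, and markers that were defining or called. Alternatives were other filters on low values, quantile normalization, median centring, other limma settings, weights per heart, lane as a covariate, only the compared groups, each heart left out, and, chosen after the data were seen, both hearts that stood apart left out.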

Additional observations from a re-analysis of the deposited data

Results flagged for a closer look

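Each member was searched in each genotype for a heart far from its nearest neighbour relative to the range of the group, by Dixon's 95% criterion, and 2 of 30 groups were marked, where chance marks about 5%. For Notch2 WT heart 6 was lowest at 10.74, with the next WT heart at 10.95 and a gap of 0.529 of the range. For Dll4 the labelled Dp1TybDyrk1a+/+/- heart 2 was lowest at 7.92, with the next at 8.10 and a gap of 0.818 of the range. Both are the hearts that stood apart over all genes.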

How the results depend on the processing

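No paired analysis was possible because the labels give no litter or replicate number that groups share. Over 30 differences of members, 308 of 330 alternative values kept their direction and side of the threshold, as did 368 of 400 with 1 heart left out. With a weight per heart, 1 member (Notch3) was called between the duplication genotypes, with 0 at all other settings. Values that changed sign were near 0. In Dp1Tyb versus WT they were Notch1 at -0.003 (hearts centred), -0.023 (weights) and -0.025 (both hearts that stood apart left out), Notch2 at 0.0 (quantile normalization), Notch4 at -0.004 (weights) and -0.007 (both left out), and Hey1 at -0.007 (quantile), -0.005 (centred), -0.009 (weights) and -0.011 (both left out). In the labelled hearts versus WT they were Notch1 at -0.005 (lane) and -0.01 (both left out) and Hey1 at 0.004 (lane). Between the duplication genotypes they were Notch1 at 0.007, Hey1 at -0.004 and Heyl at -0.022 with lane, and Dll4 at -0.016 (quantile), -0.008 (centred), -0.029 (weights), -0.012 (lane) and -0.035 (both left out). With 1 heart left out, the differences that changed sign ranged, in Dp1Tyb versus WT, from -0.032 to 0.04 (Notch1), -0.04 to 0.005 (Notch2), -0.007 to 0.021 (Notch4), -0.012 to 0.014 (Hey1) and -0.004 to 0.026 (Hes1), in the labelled hearts versus WT from -0.109 to 0.009 (Notch2) and -0.035 to 0.0 (Hey1), and between the duplication genotypes from -0.02 to 0.099 (Notch2), -0.035 to 0.024 (Dll4), 0.0 to 0.035 (Hey1) and -0.027 to 0.075 (Heyl). Other pathway genes called in Dp1Tyb versus WT numbered 1, and 0 with a mean count of at least 100, where Dner is not tested, or quantile normalization, 3 with only both groups in the fit (Dner, Furin, Neurl1b; 5.09% of all genes called), 5 without both hearts (also Mfap5 and Ncor1; 7.7%), 6 with weights (also Hes6; 9.29%) and 0 to 2 with 1 heart left out. Between the duplication genotypes 0 became 4 with weights (Dlk1, Mfap2, Numbl and Pofut1, with 8.15% of all genes called) and 1 (Pofut1, with 3.96%) without both hearts. The share of all genes called there fell from 1.16% to 0.189% with lane as a covariate and to 0.0196% with only both groups in the fit. Pairs of members past the threshold fell from 8 to 3 without both hearts, and of 10 ranks of level 5 held with the longest coding transcript and 3 with the canonical one. The causes were not tested.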
